A study of Sus scrofa with 12 samples.

Results

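Kinesins are the motor proteins that walk along or reshape microtubules, and their genes carry symbols that begin with KIF. The kinesin genes of porcine aortic valve interstitial cells (paVICs) were taken as the rows of the count table whose symbol is KIF with a number and an optional letter from A to C, or KIFC1 to KIFC3, and whose counts over the 12 libraries sum to at least 30. Of 31908 rows, 39 carried such a symbol, 3 of these (KIF2B, KIF6, and KIF19) had no count in any library, and 36 formed the set. The rule used the symbols and the summed counts but no comparison between groups. Of the 36, 12 are mitotic kinesins, 14 are transport kinesins, 9 are microtubule-end, ciliary, or atypical kinesins, and KIF12 was kept apart. The study's authors had already listed KIF12 among the genes upregulated with dantrolene in these data, so its rise was known beforehand. A further row with no symbol in the count table is KIF13B in the table of gene names (3759 counts), and it was not counted as a member.

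Most kinesins use the energy of ATP to step along a microtubule with a cargo, while others stay at microtubule ends and set how fast these grow or shrink. Mitotic kinesins build the spindle, move chromosomes, and complete cytokinesis, and their mRNAs are most abundant in dividing cells. Transport kinesins carry vesicles, mitochondria, and ciliary components in resting cells as well, with light chains and adaptors that choose the cargo. KIF12 is best known from epithelia of kidney and liver.

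The paVICs are primary fibroblast-like cells of the pig aortic valve, isolated from pooled valves after the endothelium had been removed, and labelled as wild type. The 4 groups (n = 3 each) were vehicle, 10 μM lysophosphatidylcholine (LPC), 60 μM dantrolene, and LPC + dantrolene, and every group held 0.6% DMSO and 0.1% EtOH for 24 h in low-serum medium. LPC is a lipid that accumulates with oxidized lipoproteins, and dantrolene is an inhibitor of the ryanodine receptor, a calcium channel of the endoplasmic reticulum. Replicate numbers 1 to 3 were taken to mark the separate primary isolations of the study's methods, each cultured on its own day. The sample titles give the replicate number alone. The design asked what LPC does to the cells and whether dantrolene alters it.

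Libraries held 16489684 to 24105935 counts, and 3 counts in a library equalled 0.114 to 0.186 CPM, the usual unit of counts relative to library size. Interstitial markers such as collagens and vimentin summed to 44500 to 81800 CPM per library, endothelial markers to 48.9 to 88.9 CPM, leukocyte markers to 13.8 to 28.8 CPM, and epithelial markers to at most 0.419 CPM. All 10 interstitial markers had counts enough to be tested, against 7 of 8 endothelial, 3 of 8 leukocyte, and 0 of 6 epithelial markers. The endothelial sum was 86.5 to 88.9 CPM with vehicle and 48.9 to 71.2 CPM in the treated libraries, and its member CDH5 was called lower with dantrolene (−1.20 ± 0.34, adjusted p = 0.0111). LUM was the 1 interstitial marker called, higher in all 3 treatments (1.35 to 1.59). Most of the 10 interstitial markers were below 0, 9 with LPC, 8 with dantrolene, and 8 with both. Their medians were −0.26, −0.36, and −0.16. The part of these shifts in the kinesin results was not tested. LPC + dantrolene replicate 2 stood apart, with a median correlation to the other libraries of 0.921, against 0.937 to 0.966 for the other 11. Of the mitotic kinesins, 4 (KIF11, KIF15, KIF18A, and KIF20B) had no count in that library and were counted in each of the others. Fold changes of the called kinesins in LPC + dantrolene are therefore given with and without it, and those of the other gene lists only with it.

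Levels below are CPM scaled by trimmed mean of M values (TMM) factors, and differences are log2 fold changes with their SE from the quasi-likelihood test of edgeR, with p-values adjusted by the Benjamini-Hochberg method over 13216 genes. A gene was called at an adjusted p under 0.05. CPM values are not divided by gene length, so they compare groups within a gene and not one gene with another. KIFC1, a minus-end-directed motor that focuses spindle poles, had too few counts to be tested (67 counts in all), which left 35 kinesins tested. All comparisons with vehicle share the same 3 vehicle samples. The median log2 fold change over all tested genes was −0.18 with LPC, −0.11 with dantrolene, and −0.08 with both, and became 0, 0.13, and 0.12 when libraries were scaled by total counts alone.

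With LPC, 7 of the 35 tested kinesins rose against vehicle and 0 fell. Over all tested genes 8.54% were called higher and 0.144% lower in this comparison. The 7 were KIF5B and KIF3A among the transport motors, KIF11 and KIF20B among the mitotic motors, and KIF2A, KIF21A, and KIF27 among the microtubule-end and ciliary motors. At an unadjusted p under 0.05 still no kinesin was lower, beside 373 of 13216 genes. DESeq2 called 5 kinesins higher and 0 lower, beside 8.22% and 0.159% of all genes. With dantrolene, 7 kinesins rose (KIF12, KIF5B, KIF3A, KIF2A, KIF21A, KIF27, and KIF20B) and 4 fell (KIF2C, KIF14, KIF20A, and KIF22), beside 7.54% and 1.26% of all genes. With LPC + dantrolene, 6 rose (KIF12, KIF5B, KIF3A, KIF2A, KIF21A, and KIF27) and 3 fell (KIF2C, KIF20A, and KIF22), beside 6.23% and 0.9% of all genes. These 9 were again called without LPC + dantrolene replicate 2, as was KIF20B, beside 12.6% and 2.89% of all genes. Their log2 fold changes were then 1.93 for KIF5B, 2.56 for KIF3A, 1.76 for KIF2A, 2.80 for KIF21A, 2.21 for KIF27, 1.48 for KIF12, −1.31 for KIF2C, −1.19 for KIF20A, and −1.54 for KIF22, and the values below are with that library unless stated.

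**Figure D1:**
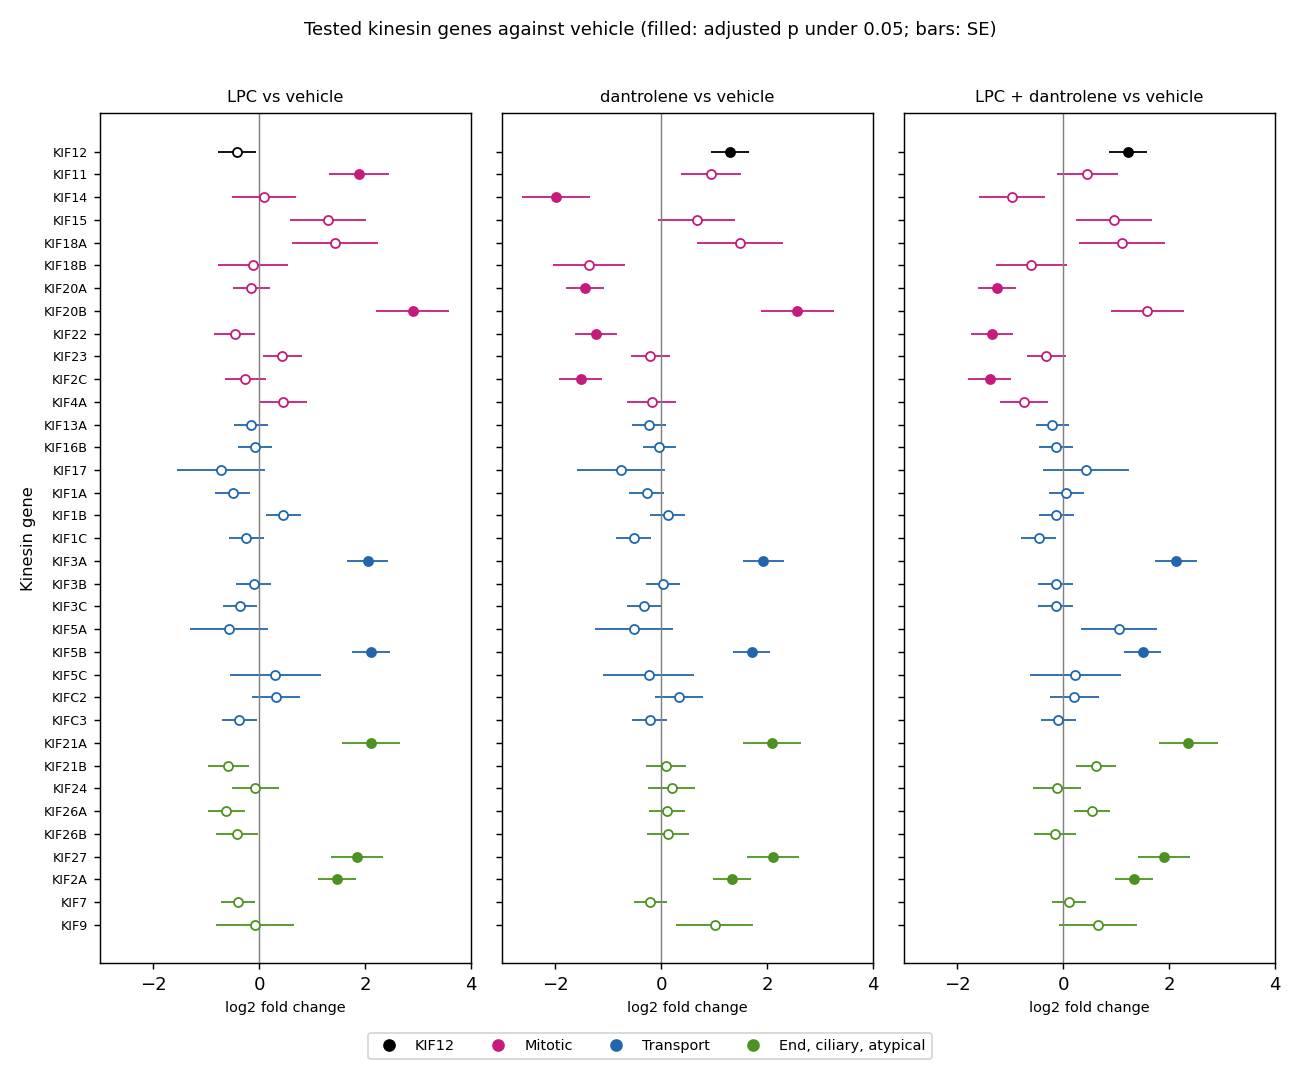
Log2 fold change against vehicle (x axis) of each of the 35 tested kinesin genes (y axis) in the 3 treatments, with bars for the SE, filled points at an adjusted p under 0.05, and colors for the classes. KIF5B, KIF3A, KIF21A, KIF27, and KIF2A are filled to the right of 0 in all 3 panels, KIF12 in the panels with dantrolene alone and LPC + dantrolene, and KIF2C, KIF20A, and KIF22 are filled to the left of 0 in the same 2 panels.

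KIF12 lies on chromosome 1, positions 254711820 to 254720559 of Sscrofa11.1 in the RefSeq annotation. Its level was 4.48, 12.3, and 11.1 CPM in the 3 vehicle samples and 9.89, 5.86, and 5.09 CPM with LPC. Dantrolene samples read 17.9, 28.5, and 22.4 CPM, and LPC + dantrolene samples 26.5, 16, and 23 CPM. Every sample that received dantrolene was above every sample that did not.

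KIF12 rose 2.47-fold with dantrolene (log2 fold change 1.31 ± 0.36, adjusted p = 0.00917) and 2.35-fold with LPC + dantrolene (1.23 ± 0.36, adjusted p = 0.0171), in 3 of 3 same-isolation pairs each. Against LPC, the combination was 3.14-fold higher (1.65 ± 0.36, adjusted p = 0.00826), and KIF12 was the one kinesin called there, beside 0.219% of all genes called higher and 0.288% lower. LPC alone gave −0.42 ± 0.36 (95% interval −1.13 to 0.30, adjusted p = 0.631), and LPC + dantrolene against dantrolene gave −0.07 ± 0.35 (−0.77 to 0.63). The interaction of LPC with dantrolene, the change in the LPC effect when dantrolene is present, was 0.35 ± 0.50 for KIF12 (adjusted p = 0.775).

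The dantrolene call on KIF12 was lost without vehicle replicate 1, the lowest vehicle sample (0.97, adjusted p = 0.14), or without dantrolene replicate 2 (1.12, adjusted p = 0.114). The difference between the combination and LPC was lost with the isolation as a block (1.65, adjusted p = 0.0728), on total counts alone (1.70, adjusted p = 0.101), with only the 2 groups fitted (1.64, adjusted p = 0.0744), and without LPC replicate 2 (1.54, adjusted p = 0.278) or 3 (1.47, adjusted p = 0.162). For the combination against vehicle, the block gave 1.25 (adjusted p = 0.0624), the 2 groups alone 1.33 (adjusted p = 0.0784), and leaving out vehicle replicate 1 gave 0.90 (adjusted p = 0.212). That call was also lost without LPC replicate 2 (adjusted p = 0.0507) and without LPC + dantrolene replicate 1 (1.07, adjusted p = 0.125) or 3 (1.20, adjusted p = 0.0655). Without LPC + dantrolene replicate 2, the values were 1.37 with dantrolene, 1.48 with both, and 1.82 against LPC, all called.

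Epithelial markers were at or near 0 in the same libraries, with CDH1 and KRT18 at 0 in all 12 and EPCAM in 11. No epithelial marker passed the filter in any comparison in which KIF12 was called.

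Among genes with a symbol, the 5 whose log2 CPM followed KIF12 most closely over the 12 samples were CDKN1A, C1QTNF12, MT1X, PANX2, and CAPN10 (Pearson's r 0.977, 0.952, 0.951, 0.927, and 0.918). These correlations are descriptions over 12 samples that share groups and isolations. CDKN1A encodes the cell-cycle inhibitor p21. It read 279, 515, and 395 CPM with vehicle, 365, 258, and 247 with LPC, 504, 776, and 687 with dantrolene, and 721, 562, and 736 with both. As with KIF12, the lowest vehicle sample was replicate 1. Unlike KIF12, CDKN1A overlapped between these groups, since vehicle replicate 2 was above dantrolene replicate 1. MT1X, a metal-binding metallothionein, ran from 0.76 to 4.18 CPM without dantrolene and from 5.72 to 10 CPM with it.

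The mitotic kinesins differed among themselves. Their summed level was 52.5, 78.8, and 54.3 CPM with vehicle, 85.4, 53, and 76.1 with LPC, 26.8, 56.8, and 31.8 with dantrolene, and 43.7, 24, and 40.9 with both. All 3 LPC + dantrolene samples were below all LPC and all vehicle samples, while dantrolene replicate 2 lay within the range of the vehicle samples. In bulk RNA, fewer dividing cells and less of these mRNAs per cell cannot be told apart. The median log2 fold change of the 11 tested was 0.44 with LPC, −0.20 with dantrolene, and −0.60 with both, with an SD over the 3 isolation pairs of 0.99, 0.40, and 1.01. The median with dantrolene moved with the processing, from −0.97 to −0.2 when single libraries were left out, to −1.3 with at least 10 counts required in every sample, and to −0.71 without a filter. The filters also changed the genes behind the median. Requiring 10 counts removed KIF11, KIF14, KIF15, KIF18A, and KIF20B, and the fit without a filter added KIFC1. The median with both was −0.49 without LPC + dantrolene replicate 2, with KIFC1 then tested as well.

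**Figure D2:**
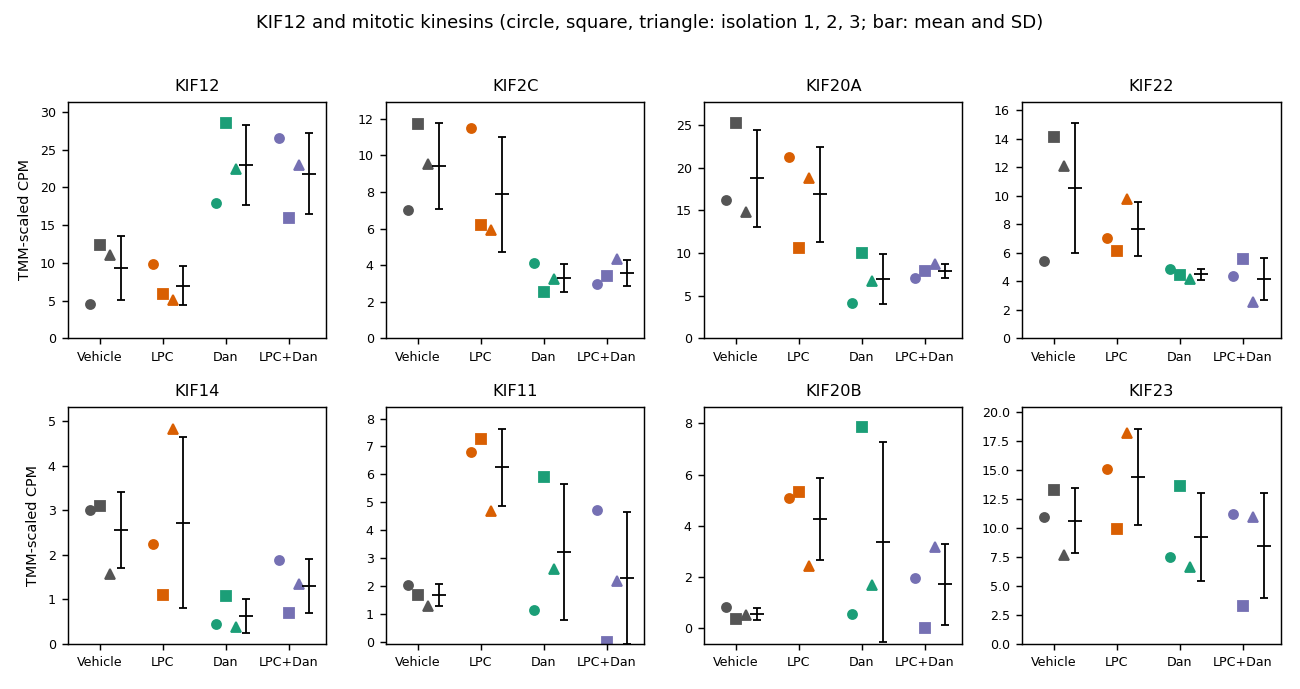
TMM-scaled CPM (y axis, from 0 or below to hold the error bars) of KIF12 and 7 mitotic kinesins in the 4 groups (x axis), with circles, squares, and triangles for isolations 1, 2, and 3 and bars for the mean and SD (n = 3). KIF12 reads 16 to 28.5 CPM in the 6 samples with dantrolene and 4.48 to 12.3 CPM in the 6 without, KIF2C and KIF20A are lower in all dantrolene-treated samples than in all vehicle samples, and KIF11 and KIF20B are at 0 in LPC + dantrolene isolation 2.

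KIF20A, which works at the central spindle in cytokinesis, read 16.2, 25.2, and 14.8 CPM with vehicle and 21.2, 10.6, and 18.8 CPM with LPC. It read 4.11, 9.98, and 6.71 CPM with dantrolene and 7.10, 7.89, and 8.72 CPM with both. All 6 samples with dantrolene were below all 6 without it. KIF20A fell by 1.43 ± 0.36 on the log2 scale with dantrolene (adjusted p = 0.00384) and by 1.24 ± 0.36 with both (adjusted p = 0.0163), in 3 of 3 pairs each, and gave −0.15 ± 0.35 with LPC (adjusted p = 0.847).

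KIF2C, a microtubule depolymerase at the centromere, had 7.01, 11.7, and 9.53 CPM with vehicle and 11.5, 6.19, and 5.91 CPM with LPC. Dantrolene samples had 4.11, 2.55, and 3.22 CPM, and samples with both agents had 2.95, 3.42, and 4.36 CPM. The ranges with dantrolene, alone or with LPC, did not overlap with vehicle. KIF2C fell by 1.52 ± 0.40 with dantrolene (adjusted p = 0.00598) and by 1.39 ± 0.40 with both (adjusted p = 0.0148).

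KIF22, a motor on chromosome arms, had 5.44, 14.1, and 12.1 CPM with vehicle, 7.02, 6.14, and 9.77 with LPC, 4.87, 4.42, and 4.15 with dantrolene, and 4.37, 5.53, and 2.56 with both. It fell by 1.23 ± 0.39 with dantrolene (adjusted p = 0.0313) and by 1.34 ± 0.40 with both (adjusted p = 0.019), although the highest sample with both agents was just above vehicle replicate 1. KIF14, which acts at the midbody, had 3.00, 3.10, and 1.57 CPM with vehicle, 2.25, 1.09, and 4.83 with LPC, 0.438, 1.07, and 0.382 with dantrolene, and 1.89, 0.683, and 1.35 with both. It fell by 1.98 ± 0.64 with dantrolene (adjusted p = 0.0352) and read −0.96 ± 0.62 with both (adjusted p = 0.586).

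Part of the alternatives ended these lower calls while the fold changes kept their sign. The log2 fold change with dantrolene ranged over the alternatives from −1.69 to −1.28 for KIF2C, −1.79 to −1.11 for KIF20A, −1.55 to −0.97 for KIF22, and −2.62 to −1.73 for KIF14. With both agents it ranged from −1.57 to −1.17 for KIF2C, −1.35 to −0.97 for KIF20A, and −1.66 to −1.08 for KIF22. Without vehicle replicate 2, 0 mitotic kinesins were called lower with dantrolene or with both agents. With dantrolene, 1 lower call remained on total counts alone (KIF2C), 2 with the isolation as a block (KIF20A and KIF2C), and 1, 2, and 2 without dantrolene replicate 1, 2, or 3. With both agents, 0 remained on total counts alone, with only the 2 groups fitted, or without LPC + dantrolene replicate 1, and 1 with the block (KIF2C) or without vehicle replicate 3 or LPC + dantrolene replicate 3. In these fits, 0.383% to 0.946% of all genes were called lower with dantrolene and 0.247% to 0.693% with both. Over the alternatives the adjusted p reached 0.0828 for KIF20A, 0.0838 for KIF2C, 0.265 for KIF22, and 0.187 for KIF14 with dantrolene, and 0.21, 0.124, and 0.258 for KIF20A, KIF2C, and KIF22 with both. KIF14 was also not called with dantrolene without vehicle replicate 1 (−1.85, adjusted p = 0.129) or LPC replicate 1 (−1.98, adjusted p = 0.052), and KIF22 without vehicle replicate 3 (−1.07, adjusted p = 0.204) or LPC replicate 2 (−1.23, adjusted p = 0.0568).

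KIF11, the motor that pushes spindle poles apart, had 2.05, 1.69, and 1.28 CPM with vehicle and 6.81, 7.28, and 4.68 CPM with LPC, with no overlap. It read 1.15, 5.90, and 2.62 CPM with dantrolene and 4.73, 0, and 2.16 CPM with both. KIF11 rose 3.72-fold with LPC (1.89 ± 0.57, adjusted p = 0.0196), and gave 0.95 ± 0.57 with dantrolene (adjusted p = 0.448) and 0.46 ± 0.57 with both (adjusted p = 0.892). The LPC call was lost with DESeq2 (adjusted p = 0.421), total counts alone (adjusted p = 0.0906), the isolation as a block (adjusted p = 0.0972), and without vehicle replicate 1 (adjusted p = 0.12) or 2 (adjusted p = 0.142) or LPC replicate 1 (adjusted p = 0.15) or 2 (adjusted p = 0.265). The log2 fold change was 1.77 to 2.08 over the alternatives. Without LPC + dantrolene replicate 2, the value with both agents was 1.09 (adjusted p = 0.125).

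KIF20B, a second motor of cytokinesis, had 0.811, 0.350, and 0.523 CPM with vehicle and 5.07, 5.32, and 2.42 CPM with LPC. Dantrolene samples had 0.547, 7.85, and 1.69 CPM, so that 1 sample was within the vehicle range and another above all LPC samples. With both agents it had 1.95, 0, and 3.16 CPM. KIF20B rose 7.45-fold with LPC (2.90 ± 0.69, adjusted p = 0.00164) and 5.94-fold with dantrolene (2.57 ± 0.69, adjusted p = 0.00674), the latter in 2 of 3 pairs. With both agents the value was 1.59 ± 0.69 (adjusted p = 0.204), and 2.20 without the library that stood apart (adjusted p = 0.00625, when 12.6% of all genes were called higher). The dantrolene call rested on dantrolene replicate 2, since without it the value was 0.98 (adjusted p = 0.79), and it was also lost with DESeq2 (2.64, adjusted p = 0.254), the block (2.41, adjusted p = 0.106), and without vehicle replicate 1 (adjusted p = 0.0581), vehicle replicate 2 (adjusted p = 0.121), or LPC replicate 2 (adjusted p = 0.0843). For LPC, DESeq2 gave 2.96 (adjusted p = 0.161), and the call was lost without vehicle replicate 2 (adjusted p = 0.0613) or LPC replicate 2 (adjusted p = 0.101).

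KIF23, the motor subunit of centralspindlin, was called in no comparison. It had 11.0, 13.3, and 7.67 CPM with vehicle, 15.1, 9.94, and 18.2 with LPC, 7.5, 13.6, and 6.66 with dantrolene, and 11.2, 3.29, and 11.0 with both, and all groups overlapped with vehicle. The remaining mitotic kinesins tested (KIF4A, KIF15, KIF18A, and KIF18B) were called in no comparison, with log2 fold changes against vehicle from −1.37 (KIF18B with dantrolene) to 1.49 (KIF18A with dantrolene).

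Between LPC + dantrolene and LPC, all 11 mitotic kinesins tested had a negative log2 fold change, with a median of −1.05 (SD over the 3 pairs 0.28) beside 0.02 over all tested genes. None passed the adjusted threshold with edgeR or DESeq2, and 7 were lower at an unadjusted p under 0.05 (KIF2C, KIF4A, KIF11, KIF20A, KIF20B, KIF22, and KIF23), as were 432 of 13216 genes. KIF20A was at −1.09 ± 0.36 (adjusted p = 0.208), KIF2C at −1.13 ± 0.40 (adjusted p = 0.299), and KIF11 at −1.43 ± 0.56 (adjusted p = 0.441). Without LPC + dantrolene replicate 2, KIF20A was at −1.11, KIF2C at −1.12, and KIF11 at −0.87, and again none was called. KIF15 (0.22) and KIF18A (0.24) were then positive, 4 were lower at an unadjusted p under 0.05 (KIF2C, KIF4A, KIF20A, and KIF22), and the median, with KIFC1 tested as well, was −0.81. KIF11, KIF20B, and KIF23 had an unadjusted p of 0.0722, 0.194, and 0.251 by edgeR without that library. The 11 share a cell-cycle role and the same 6 libraries, so they are not 11 independent measurements.

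Of 28 tested partners in the spindle and in cytokinesis, 6 rose with LPC (ECT2, ANLN, CENPE, TOP2A, CENPF, and CKAP5) and 0 fell, with a median of 0.72. These are 21.4% and 0%, beside 8.54% and 0.144% of all genes. At an unadjusted p under 0.05, 13 were higher and 0 lower, beside 1726 and 373 of 13216 genes. With dantrolene 2 rose (ECT2 and CENPE, 7.14% beside 7.54% of all genes) and 3 fell (CDC20, PLK1, and BIRC5, 10.7% beside 1.26%). With both, 2 rose (ECT2 and CENPE) and 2 fell (CDC20 and BIRC5), 7.14% each beside 6.23% and 0.9% of all genes. Against LPC alone ANLN fell by 1.59 ± 0.36 (adjusted p = 0.00987). ANLN read 47.8, 33.6, and 59.1 CPM with LPC and 23.4, 8.88, and 14.3 CPM with both. LPC + dantrolene replicate 2 was the lowest of these and had no count of TOP2A, CENPF, CKAP2, CDK1, or ASPM. Partner fold changes without that library are not given here. CENPE is itself a kinesin, which holds chromosomes to microtubules, under a symbol that the rule did not take.

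ECT2, which acts in cytokinesis, read 4.05, 5.72, and 3.49 CPM with vehicle, 23.1, 21.3, and 17.5 with LPC, 8.60, 26.1, and 15.9 with dantrolene, and 20.1, 6.71, and 22.4 with both. CDC20, an activator of the anaphase-promoting complex, read 15.5, 19.4, and 14.3 CPM with vehicle, 14.2, 6.95, and 11.9 with LPC, 6.30, 3.81, and 7.09 with dantrolene, and 7.84, 7.58, and 5.82 with both. All treated ECT2 samples were above vehicle, and all 6 CDC20 samples with dantrolene were below vehicle.

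Of the 14 transport kinesins, all tested, KIF5B and KIF3A rose against vehicle in all 3 treatments and 12 were not called in any comparison. The share called higher was 14.3% each time, beside 8.54%, 7.54%, and 6.23% of all genes with LPC, dantrolene, and both. Against vehicle 0 fell, beside 0.144%, 1.26%, and 0.9% of all genes. The class median was −0.12 with LPC, −0.22 with dantrolene, and −0.02 with both (−0.05 without LPC + dantrolene replicate 2), beside −0.18, −0.11, and −0.08 over all genes. On total counts alone these medians were 0.05, 0.04, and 0.18, so their sign depends on the scaling.

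KIF5B, the broadly expressed heavy chain of conventional kinesin (chromosome 10, 42637105 to 42693551), read 87.7, 67.8, and 52.6 CPM with vehicle and 281, 322, and 301 CPM with LPC. It read 134, 356, and 190 CPM with dantrolene and 238, 83.1, and 272 CPM with both. Every LPC and dantrolene sample was above every vehicle sample, and with both agents only replicate 2 fell within the vehicle range. KIF5B rose 4.34-fold with LPC (2.12 ± 0.36, adjusted p = 9.95e-06), 3.27-fold with dantrolene (1.71 ± 0.35, adjusted p = 0.000334), and 2.86-fold with both (1.51 ± 0.35, adjusted p = 0.0016), in 3 of 3 pairs each. Its close relatives KIF5A and KIF5C, known mainly from neurons, ranged from 0.190 to 3.11 CPM and from 0 to 1.74 CPM, and were not called in any comparison.

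KIF3A, a motor subunit of the heterotrimeric kinesin that builds cilia (chromosome 2, 134932339 to 135069408), had 4.58, 2.10, and 2.91 CPM with vehicle and 16, 14, and 10.1 CPM with LPC. It had 7.5, 17.3, and 11.9 CPM with dantrolene and 18.4, 5.78, and 18.1 CPM with both. All 9 treated samples were above all vehicle samples. KIF3A rose 4.15-fold with LPC (2.05 ± 0.39, adjusted p = 7.29e-05), 3.81-fold with dantrolene (1.93 ± 0.39, adjusted p = 0.000256), and 4.39-fold with both (2.14 ± 0.40, adjusted p = 7.42e-05), and it was called in all 20 alternatives of each.

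The partners of KIF3A in that motor gave other values. KIF3B, which pairs with KIF3A, read 31.0, 47.5, and 34.2 CPM with vehicle, 44.7, 24.8, and 35.8 with LPC, 33.7, 42.0, and 39.0 with dantrolene, and 34.3, 31.4, and 36.5 with both. Its log2 fold changes were −0.10 (95% interval −0.74 to 0.55), 0.03 (−0.62 to 0.67), and −0.14 (−0.79 to 0.51), all with overlapping groups, and each interval lies below the fold change of KIF3A in the same comparison. The difference between both genes was not tested. KIF3C was not called either, at −0.36, −0.32, and −0.14. KIFAP3, which links the motor to its cargo, was at 0.52 ± 0.34 with LPC (adjusted p = 0.522), 0.94 ± 0.34 with dantrolene (adjusted p = 0.0712), and 0.69 ± 0.34 with both (adjusted p = 0.315).

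**Figure D3:**
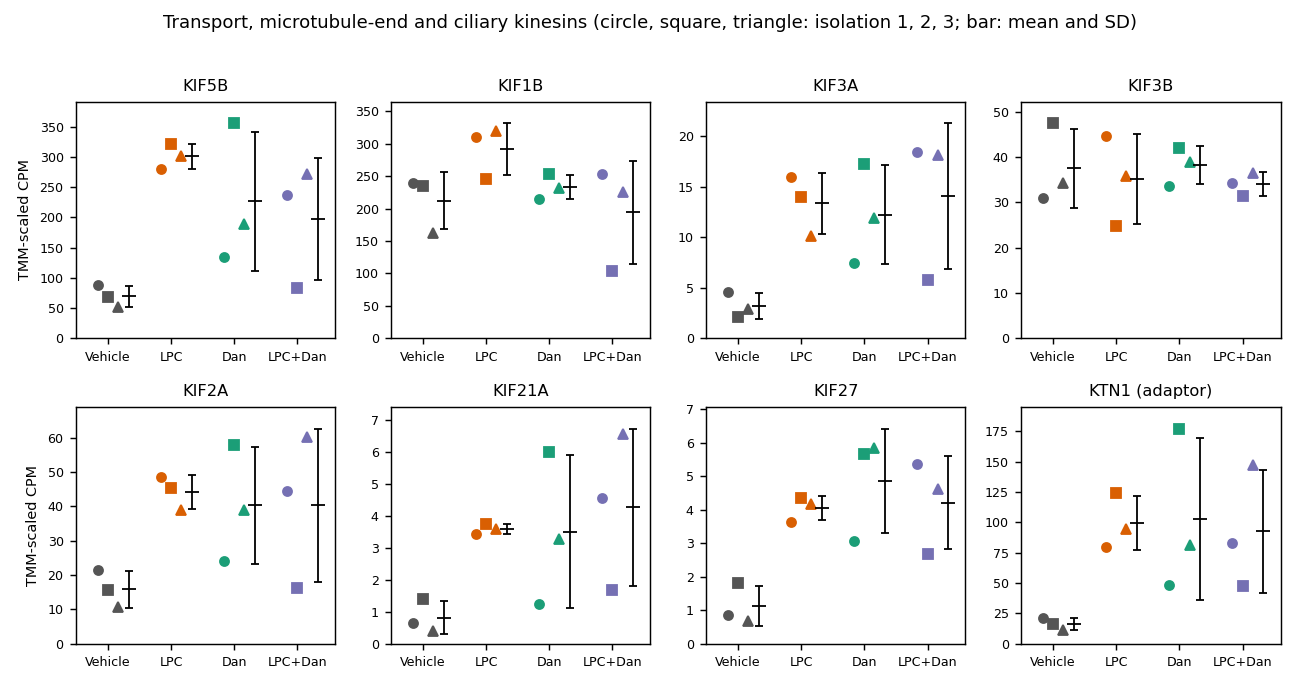
TMM-scaled CPM (y axis) of 4 transport kinesins, 3 microtubule-end or ciliary kinesins, and the kinesin anchor KTN1 in the 4 groups (x axis), with circles, squares, and triangles for isolations 1, 2, and 3 and bars for the mean and SD (n = 3). KIF5B, KIF3A, KIF27, and KTN1 are above the vehicle samples in all LPC and all dantrolene samples, whereas KIF3B overlaps with vehicle in every group, and LPC + dantrolene isolation 2 (square) is the lowest of its group in each panel.

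KIF1B, a carrier of mitochondria and vesicles, had 240.0, 235, and 162 CPM with vehicle, 310.0, 246, and 319 with LPC, 215, 253, and 231 with dantrolene, and 253, 104, and 225 with both. All 3 LPC samples were above vehicle, but the fold change of 0.46 ± 0.33 (95% interval −0.19 to 1.11) did not pass the test (adjusted p = 0.563). KIF1A and KIF1C, which move vesicles, were at −0.50 and −0.24 with LPC and at −0.27 and −0.52 with dantrolene, none called. KIF1A is known as a neuronal motor, and among the nerve and glial markers, which summed to 31.6 to 82.2 CPM, TUBB3 made up 29.5 to 81.3 CPM, SNAP25 was at most 0.271 CPM, and SOX10 at most 1.28 CPM. The other members not called were KIF13A and KIF16B, which serve endosomes, KIF17, and the minus-end-directed KIFC2 and KIFC3, with log2 fold changes against vehicle between −0.75 (KIF17 with dantrolene) and 0.43 (KIF17 with both).

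Among the cargo linkers, KTN1 and SPAG9 rose in all 3 treatments, 2 of 21 tested light chains and adaptors, and 0 fell. That share of 9.52% is close to the 8.54%, 7.54%, and 6.23% of all genes called higher in the 3 comparisons. KTN1 encodes kinectin, a kinesin anchor on the endoplasmic reticulum. It read 21.6, 16.2, and 11.2 CPM with vehicle, 80.0, 124, and 94.8 with LPC, 48.5, 177, and 81.7 with dantrolene, and 82.7, 47.8, and 147 with both, so all 9 treated samples were above vehicle. Its log2 fold changes were 2.61 ± 0.38, 2.65 ± 0.38, and 2.5 ± 0.38 (adjusted p = 9.35e-07, 1.41e-06, and 4.38e-06). SPAG9, a scaffold between kinesin and dynactin, gave 1.59 ± 0.35, 1.43 ± 0.35, and 1.39 ± 0.35. Kinesin light chain KLC1 gave −0.28, −0.19, and −0.14 and was not called. At an unadjusted p under 0.05, 1, 0, and 1 of the 21 were lower, beside 373, 535, and 497 of 13216 genes.

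Cytoplasmic dynein, the motor that runs in the opposite direction, had 27 dynein, dynactin, and adaptor genes tested. With LPC 3 rose (HOOK3 2.22 ± 0.38, DYNLT3 1.68 ± 0.36, and CLIP1 1.16 ± 0.34), with dantrolene 3 (HOOK3, DYNLT3, and BICD1), and with both 2 (HOOK3 and DYNLT3), and 0 fell in each, with 1, 0, and 0 lower at an unadjusted p under 0.05. The shares called higher, 11.1%, 11.1%, and 7.41%, lie near the 8.54%, 7.54%, and 6.23% of all genes. Of 13 tubulin genes 0 were called in any comparison, and their medians were −0.40, −0.44, and −0.26 against vehicle. At an unadjusted p under 0.05, 0 of the 13 were lower with LPC or dantrolene and 1 with both. Over all 13216 genes, 373, 535, and 497 were lower at that threshold with LPC, dantrolene, and both.

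Of the 9 microtubule-end, ciliary, and atypical kinesins, 3 rose in each treatment against vehicle, KIF2A, KIF21A, and KIF27 each time. That is 33.3% of the class, beside 8.54%, 7.54%, and 6.23% of all genes called higher with LPC, dantrolene, and both. In this class 0 fell, beside 0.144%, 1.26%, and 0.9% of all genes, and 0 were lower at an unadjusted p under 0.05. Over all 13216 genes, 373, 535, and 497 were lower at that threshold with LPC, dantrolene, and both. KIF2A, a depolymerase of microtubule ends, had 21.4, 15.7, and 10.6 CPM with vehicle, 48.6, 45.3, and 38.9 with LPC, 24.0, 57.7, and 39.0 with dantrolene, and 44.5, 16.1, and 60.1 with both. It rose by 1.48 ± 0.36 with LPC (adjusted p = 0.00225), 1.34 ± 0.36 with dantrolene (adjusted p = 0.00726), and 1.34 ± 0.36 with both (adjusted p = 0.00807), and the last group overlapped with vehicle through replicate 2. KIF21A, which slows microtubule growth at the cell cortex, had 0.668, 1.40, and 0.407 CPM with vehicle, 3.43, 3.75, and 3.6 with LPC, 1.26, 6.02, and 3.27 with dantrolene, and 4.58, 1.68, and 6.57 with both.

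KIF21A rose by 2.12 ± 0.55, 2.10 ± 0.55, and 2.37 ± 0.55 (adjusted p = 0.00449, 0.00564, and 0.00159), although dantrolene replicate 1 was below the highest vehicle sample. KIF27, a relative of the hedgehog regulator KIF7, had 0.858, 1.81, and 0.697 CPM with vehicle, 3.64, 4.34, and 4.17 with LPC, 3.07, 5.68, and 5.84 with dantrolene, and 5.37, 2.67, and 4.61 with both. All 9 treated samples were above vehicle, and the log2 fold changes were 1.85 ± 0.49, 2.12 ± 0.49, and 1.91 ± 0.49 (adjusted p = 0.00519, 0.00136, and 0.00472). KIF7 itself was not called, at −0.40, −0.20, and 0.12, nor were KIF9, KIF21B, KIF24, KIF26A, and KIF26B, between −0.62 and 1.01. Without LPC + dantrolene replicate 2, KIF26A, an atypical kinesin, was called higher with the combination than with LPC (1.22, adjusted p = 0.0322), against 1.17 and an adjusted p of 0.125 with it.

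KIF5B and KIF2A with LPC, KIF27 with dantrolene, and KIF5B and KIF21A with both were called in every alternative in which they were tested. Without dantrolene replicate 2, the dantrolene calls of KIF5B (1.22, adjusted p = 0.0574), KIF2A (0.99, adjusted p = 0.2), and KIF21A (1.46, adjusted p = 0.225) were lost, and only 2 kinesins were called higher, against 2.77% of all genes. Without vehicle replicate 1, 4 kinesins were called higher with dantrolene, beside 6.26% of all genes. Without LPC replicate 2 there were 4 with LPC, beside 4.9% of all genes. KIF21A lost its LPC call without LPC replicate 2 (2.09, adjusted p = 0.0519) or vehicle replicate 1 (1.98, adjusted p = 0.0588), and its dantrolene call without the latter (1.96, adjusted p = 0.0615). KIF27 lost its calls with LPC (1.66, adjusted p = 0.057) and with both (1.71, adjusted p = 0.0595) without vehicle replicate 3. KIF2A with dantrolene was not called without vehicle replicate 2 (1.33, adjusted p = 0.0722) or 3 (1.16, adjusted p = 0.0804), nor with both agents without either of these (1.33 and 1.15, adjusted p = 0.0805 and 0.0972) or without LPC + dantrolene replicate 1 (1.26, adjusted p = 0.0546) or 3 (0.93, adjusted p = 0.258). The isolation as a block ended the call of KIF2A with both agents (1.33, adjusted p = 0.0501), which was also lost with the 2 groups alone (1.46, adjusted p = 0.056).

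In the interaction, 3 kinesins were called lower and 0 higher, beside 4.49% and 0.159% of all genes. KIF5B was at −2.31 ± 0.49 (adjusted p = 0.00191), KIF3A at −1.85 ± 0.54 (adjusted p = 0.027), and KIF20B at −3.88 ± 0.93 (adjusted p = 0.00537). For KIF5B, LPC gave 2.12 without dantrolene and −0.19 ± 0.34 with it. For KIF3A the corresponding values were 2.05 and 0.21 ± 0.37, and for KIF20B 2.90 and −0.98 ± 0.63. At an unadjusted p under 0.05, 3 kinesins were higher in the interaction (KIF5A, KIF21B, and KIF26A) and 7 were lower, beside 377 and 1542 of 13216 genes. DESeq2 called 0 kinesins higher and 2 lower (KIF5B and KIF27), beside 0.0832% and 3.09% of all genes. In DESeq2, KIF20B (−3.96, adjusted p = 0.242) and KIF3A (−1.89, adjusted p = 0.065) were not called, and KIF27 was (−2.11, adjusted p = 0.0413).

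The interaction was not called for any kinesin without LPC replicate 2 or without dantrolene replicate 2, when 0.0293% and 0.228% of all genes were called lower. KIF3A and KIF20B were also not called without vehicle replicate 2 (−1.62 and −3.64) or LPC replicate 1 (−1.70 and −3.73), and the number called lower rose to 7 without dantrolene replicate 1 and to 5 without LPC + dantrolene replicate 1 or 3, as the share of all genes called lower rose from 4.49% to 5.61%, 5.75%, and 6.52%. With the isolation as a block only KIF5B was called (KIF3A −1.98, adjusted p = 0.0766, and KIF20B −3.62, adjusted p = 0.115), as on total counts alone (KIF3A adjusted p = 0.1 and KIF20B adjusted p = 0.0756). Without LPC + dantrolene replicate 2 the values were −2.01 for KIF5B, −1.54 for KIF3A, and −3.38 for KIF20B, each called.

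LPC + dantrolene against dantrolene gave 0 kinesins in either direction with edgeR and with DESeq2, beside 0.0151% of all genes called higher and 0.00757% lower by edgeR. Of 13216 genes, 102 were higher and 67 lower at an unadjusted p under 0.05. At an unadjusted p under 0.05, 1 kinesin was higher (KIF5A, 1.56 ± 0.73, adjusted p = 1) and 0 were lower.

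Most kinesins that rose with LPC were long genes on the chromosome, a property that the rule did not use, and so were most genes called higher. Tested genes found in RefSeq by symbol (81.8% of them, and 34 of the 35 tested kinesins) were split by gene span into 4 bins of equal size. The share of all genes called higher with LPC was 2%, 5.29%, 13.9%, and 16.5% from the shortest to the longest bin, and 1.96%, 4.51%, 12%, and 14.7% with dantrolene. Of the 7 kinesins that rose with LPC, 0, 0, 2, and 5 were in these bins, which held 3, 5, 12, and 14 tested kinesins. KIF12, which spans 8.74 kb, was in the shortest bin, as was KIF20A (10.8 kb), while KIF2C (21.1 kb) and KIF22 (18.6 kb) were in the second and KIF3A (137.1 kb) and KIF21A (140.8 kb) in the longest. Span was taken up after the values had been seen and is a description, and its part in the calls was not tested.

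**Figure D4:**
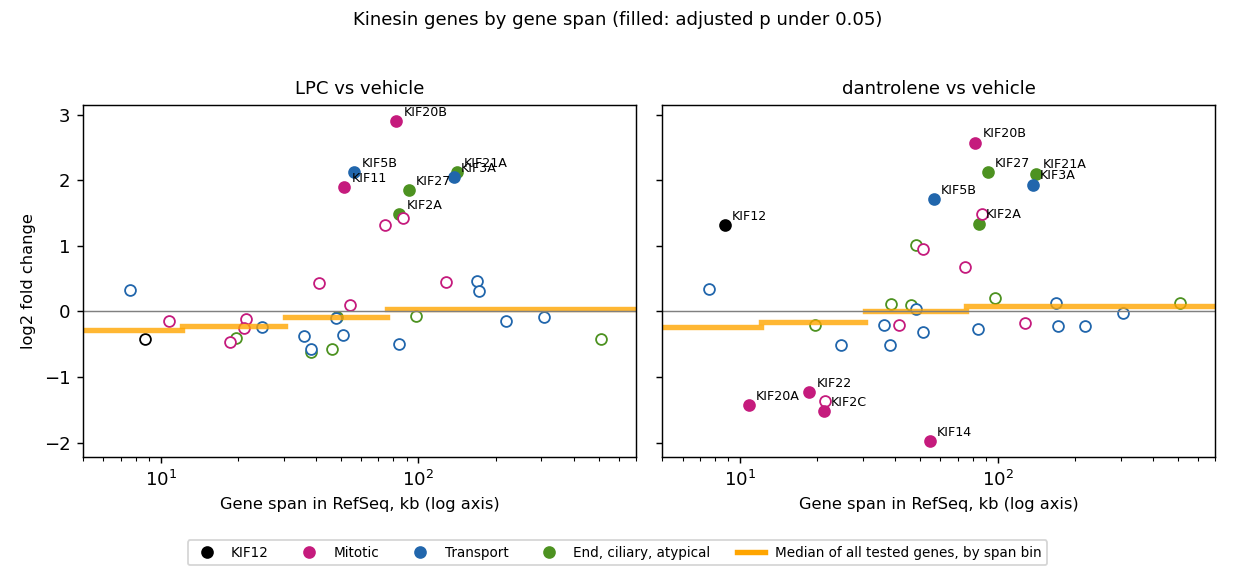
Log2 fold change (y axis) of the tested kinesins found in RefSeq against gene span in kb (log x axis), for LPC and for dantrolene against vehicle, with filled, named points at an adjusted p under 0.05 and orange lines for the median of all tested genes in each of the 4 span bins. The kinesins that rose with LPC lie to the right, at 51.5 kb and above, and with dantrolene KIF12 is the one filled point above 0 in the shortest bin, while KIF20A, KIF22, KIF2C, and KIF14 are filled below 0.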

How the data were processed

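RNA sequencing of mRNA covered 12 libraries in 4 groups of 3. The authors' methods name STAR, and the submitters' processing notes name HISAT2 2.0.5, R 4.1.1, DESeq2 1.32.0, and Sscrofa11.1, so the aligner is uncertain. The authors adjusted for isolation with ComBat and deposited whole-number counts per gene, not scaled for library size. ComBat spends degrees of freedom unknown to later tests, which can make adjusted p-values too small. The deposited tables of the authors' own comparisons (log2 fold changes and p-values) were not used.

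Counts were fitted in R 4.3.3 with edgeR 4.0.16 (filterByExpr, TMM, group as the only term, all 12 libraries, glmQLFTest). SEs and 95% intervals were derived from the fitted F values. Log2 CPM for the likeness to KIF12 used a prior count of 2. Values per sample were printed for KIF12, 6 preset kinesins, and every kinesin called, and up to 3 called genes of each list. Members and lists were chosen with earlier results of these data known. Alternatives were leaving out each library, DESeq2 1.42.0, scaling by RLE or by total counts, other filters (none, or at least 10 counts in each sample), fits of 2 groups or with an isolation block, and a threshold of 0.1.

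Samples were paired by isolation on the assumption that replicate numbers match across groups. The study's methods give separate isolations with a replicate of each group, but do not state the numbering. Deviations of same-isolation samples had a median correlation of −0.152, an outcome that ComBat fixes. The tests were tried on simulated counts first. Gene positions came from RefSeq by symbol, and protein and promoter sequences were not used here.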

Additional observations from a re-analysis of the deposited data

Results flagged for a closer look

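The effect of LPC on 3 kinesin genes differed with and without dantrolene by the test of the interaction itself. The log2 interaction was −3.88 for KIF20B (adjusted p = 0.00537), −2.31 for KIF5B (adjusted p = 0.00191), and −1.85 for KIF3A (adjusted p = 0.027) by edgeR's quasi-likelihood test, and 4.49% of all tested genes were called lower in it. DESeq2, scaling by total counts alone, and the isolation as a block each ended the calls of KIF3A (adjusted p = 0.065, 0.1, and 0.0766) and KIF20B (adjusted p = 0.242, 0.0756, and 0.115), while KIF5B was called in each. Without LPC replicate 2 or without dantrolene replicate 2, none of the 3 was called, with KIF5B at −2.27 (adjusted p = 0.0837) and −1.83 (adjusted p = 0.0842).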

How the results depend on the processing

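Of 1642 alternative values for 84 fold changes of named kinesins, 1523 kept their side of the threshold or had no adjusted p. A further 99 lost the call, 20 gained it, and 0 reversed with a call on either side. Fold changes without a call could change sign among the 1523, as for KIF14 with LPC (−0.61 to 0.47). On total counts alone the kinesins called lower were 1 with dantrolene, 0 with LPC + dantrolene, and 1 in the interaction, and 0 were called higher between LPC + dantrolene and LPC, while the transport medians were 0.05, 0.04, and 0.18 with LPC, dantrolene, and both. Of all genes, 0.462%, 0.393%, and 1.76% were then called lower in the same order, and 0.0378% higher against LPC. The transport median with LPC was −0.07 with DESeq2 and with RLE factors and −0.04 with only the 2 groups fitted. Fits of 2 groups called 0 lower with LPC + dantrolene and 0 higher against LPC, beside 0.247% and 0.0875% of all genes. With at least 10 counts in every sample, 4 were higher with LPC, beside 10.5% of all genes, and KIF11, KIF20B, and KIF21A were not tested. With dantrolene, the mitotic median was then −1.3 and the transport median −0.03, each over fewer genes than in the main fit. Without a filter the mitotic median with dantrolene was −0.71, with KIFC1 added. At an adjusted p under 0.1 the interaction called 6 lower, beside 6.33% of all genes.

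With the isolation as a replicate block, 2 kinesins were lower with dantrolene, 1 with LPC + dantrolene, and 1 in the interaction, 0 were higher between LPC + dantrolene and LPC, and the other counts stayed within 1.5 times. Of all genes, 0.583%, 0.446%, and 2.1% were then lower in the same order, and 0.0681% higher against LPC.

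When each library was left out in turn, counts called higher ranged from 4 to 7 with LPC, 2 to 7 with dantrolene, 4 to 7 with both, and 0 to 2 against LPC. The shares of all genes called higher ranged in the same order from 4.9% to 11.9%, 2.77% to 11.2%, 3.42% to 12.6%, and 0.022% to 0.39%. Counts called lower ranged from 0 to 4 with dantrolene, 0 to 3 with both, and 0 to 7 in the interaction, beside 0.383% to 2.09%, 0.308% to 2.89%, and 0.0293% to 6.52% of all genes. Medians ranged from −0.28 to −0.05 (transport, LPC), −0.97 to −0.2 (mitotic, dantrolene), −0.25 to 0.05 (transport, dantrolene), −0.05 to 0.1 (transport, both), and −1.2 to −0.67 (mitotic, both against LPC). Apart from the changes that follow from fewer samples or genes, the cause was not tested.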
